A study of Capra hircus with 2 samples.

Results

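The miR-99/100 and miR-125 families were followed through small RNA libraries of goat testicular cells sorted by CD49f, the integrin alpha-6 chain. The members are miR-99a, miR-99b, miR-100, miR-125a and miR-125b. They were chosen by name: every table entry whose miRNA name, without species, copy number and arm, was 1 of these 5. This gave 42 of 4937 entries, 19 in the CD49f-positive and 23 in the CD49f-negative table, which sum to 10 mature arms among 1814 names with an arm. In each library, 12 of these entries lay at 6 known hairpins placed on the genome, and they held 99.96% and 99.91% of the members' reads.

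The cells came from 3 testes of 3 Saanen dairy goats aged 5 months and were released with collagenase, DNase and a further digestive enzyme. Cells left floating after a night in a culture dish, a step meant to take out Sertoli and myoid cells, were sorted on magnetic beads. Both groups, CD49f-positive and CD49f-negative, shared all of these steps and differ in the sort. Whether the goats were pooled is not stated, and each group had 1 library here although the series text speaks of triplicates, so differences could not be set against replicate spread or tested.

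Named miRNAs had 8196507 reads in the positive library, 2.67 times the 3064462 of the negative. The labelled tissue was checked against marker miRNAs. The meiotic and later germ cell markers miR-34b, miR-34c and miR-449a made up 2.25% of the positive and 11.4% of the negative reads, and the 2 smooth muscle and myoid markers 22.6% and 18.9%. Most reads of the latter were miR-143-3p, and the arms of these 2 markers disagreed. Log2 ratios (positive over negative) were 0.26 for miR-143-3p and 0.56 for miR-145-3p, but -0.76 for miR-143-5p and -1.24 for miR-145-5p. None of the markers listed was at 0 in these libraries.

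A miRNA pairs with messenger RNAs mainly through its seed, bases 2 to 8 counted from 1 at the 5′ end. The miR-99/100 family is known for lowering mTOR and other components of growth factor signalling. The miR-125 family is the vertebrate form of lin-4, a regulator of developmental timing in worms, and shares LIN28 as a known target with let-7. In vertebrates the 2 families sit side by side with a let-7 gene in clusters, and LIN28 in turn blocks the maturation of let-7.

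The sequences below are the reference mature 5′ (5p) arms given in the deposited tables under cattle miRNA names, with the seed in capitals. The reads listed for an arm can differ from them in length or by a base. They are shown because the seed makes the families and because the remaining bases decide which reads can be told apart.
miR-99a-5p: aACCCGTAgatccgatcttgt
miR-100-5p: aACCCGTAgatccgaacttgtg
miR-99b-5p: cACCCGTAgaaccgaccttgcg
miR-125a-5p: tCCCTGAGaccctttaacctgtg
miR-125b-5p: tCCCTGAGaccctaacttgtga
All 3 miR-99/100 members carry 1 seed and both miR-125 members another. Over the 21 bases that miR-99a and miR-100 share in length, they differ by the substitution A16T, with the base of miR-100 first and the base of miR-99a last. miR-99b differs from miR-100 by A1C, T11A, A16C and T21C. miR-125a and miR-125b are the same over their first 13 bases.

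Hairpins of 3 genes in the 2 wider clusters are shown as the tables give them, with the reference arms, and listed reads that match exactly, in capitals, to place the arms that the counts below refer to.
miR-99a hairpin: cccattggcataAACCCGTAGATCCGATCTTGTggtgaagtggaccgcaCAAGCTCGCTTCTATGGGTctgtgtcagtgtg
miR-100 hairpin: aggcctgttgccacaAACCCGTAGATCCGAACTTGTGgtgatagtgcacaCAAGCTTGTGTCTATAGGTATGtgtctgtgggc
miR-125b-1 hairpin: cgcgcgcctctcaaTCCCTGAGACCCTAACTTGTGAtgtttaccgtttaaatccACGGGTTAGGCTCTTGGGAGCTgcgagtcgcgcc
The 5p arm is the same in the miR-125b-1 and miR-125b-2 hairpins, while the 3′ (3p) arms differ. Reads of miR-125b-3p can therefore be assigned to a gene, and reads of miR-125b-5p mostly cannot.

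In the deposited coordinates, counted from 1 on a goat build not given in the sources used here, the 6 hairpins form 3 clusters. The first holds miR-99a (chr1:19223121-19223201, minus strand), let-7c (chr1:19222369-19222476) and miR-125b-2. let-7c lies 644 bases from miR-99a. The second holds miR-100 (chr15:31103164-31103246, minus strand), let-7a-2 (chr15:31097574-31097723) and miR-125b-1 (chr15:31050761-31050848). Here let-7a-2 lies 5.44 kb from miR-100 and 46.7 kb from miR-125b-1. The third is compact: miR-99b (chr18:55857717-55857786, plus strand) and miR-125a (chr18:55858366-55858440) flank let-7e (chr18:55857872-55857980), with gaps of 85 and 385 bases.

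RefSeq's goat annotation, assembly ARS1.2, was used for names and neighbours only, and 4 of the 5 member names were matched in it. MIR99A, MIRLET7C and MIR125B lie there within the long noncoding RNA gene LOC102176916, between CXADR and USP25. MIR100 lies within the long noncoding RNA gene LOC108637679, between UBASH3B and SORL1. MIR99B and MIRLET7E lie in no other gene, next to HAS1. The compact cluster also has the most GC-rich member hairpins, with 67.1% for miR-99b and 62.7% for miR-125a, against 49.4% to 56.8% for the other 4.

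The 2 families filled 39.5% of the named reads of positive cells and 37.7% of those of negative cells, and nearly all of this was miR-99/100. That family held 38.6% and 36.6% of the reads, a log2 ratio (positive over negative) of 0.08. The miR-125 family held 0.856% and 1.16%, a log2 ratio of -0.44 (95% interval -0.46 to -0.42). All intervals here cover counting error only, and in sorted bulk cells a difference in how many cells of a type were present cannot be told apart from a difference in RNA per cell.

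As deposited, with shared reads divided as described below, miR-100-5p was the most abundant name in both libraries. It had 2083139 reads in the positive and 778856.5 in the negative, or 25.4% of each. miR-99a-5p was the fourth in both, with 1011771 and 312138.5 reads, or 12.3% and 10.2%. The other member of that family, miR-99b-5p, stood far below with 68547.5 reads (0.836%) and 29182 reads (0.952%), ranks 13 and 10. These levels are shares of reads of mature miRNAs of like length, so no length correction was made. Whether the library steps capture each miRNA equally was not tested, so the ranks are of reads and need not be those of molecules.

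miR-125b-5p had 41368 reads (0.505%) in the positive and 24555 (0.801%) in the negative library, ranks 20 and 16. miR-125a-5p had 25193 (0.307%) and 9640 (0.315%), ranks 25 and 26. As deposited, the order of the 5 main arms was the same in both libraries, from miR-100-5p through miR-99a-5p, miR-99b-5p and miR-125b-5p to miR-125a-5p. Without the reads shared with miR-100, described below, miR-99a-5p had 66853 and 65250 reads, which is below miR-99b-5p in the positive library and above it in the negative. With the copies of the listed shared read given to miR-99a, miR-99a-5p had 1792402 reads and miR-100-5p 1302508 in the positive library. They had 511529 and 579466 in the negative. miR-143-3p then came first in the positive library with 1813387 reads, and the order of the pair differed between the libraries. As deposited, neighbours in the order lay further apart than their counting intervals in each library, but without replicates their spread is not known.

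**Figure D1:**
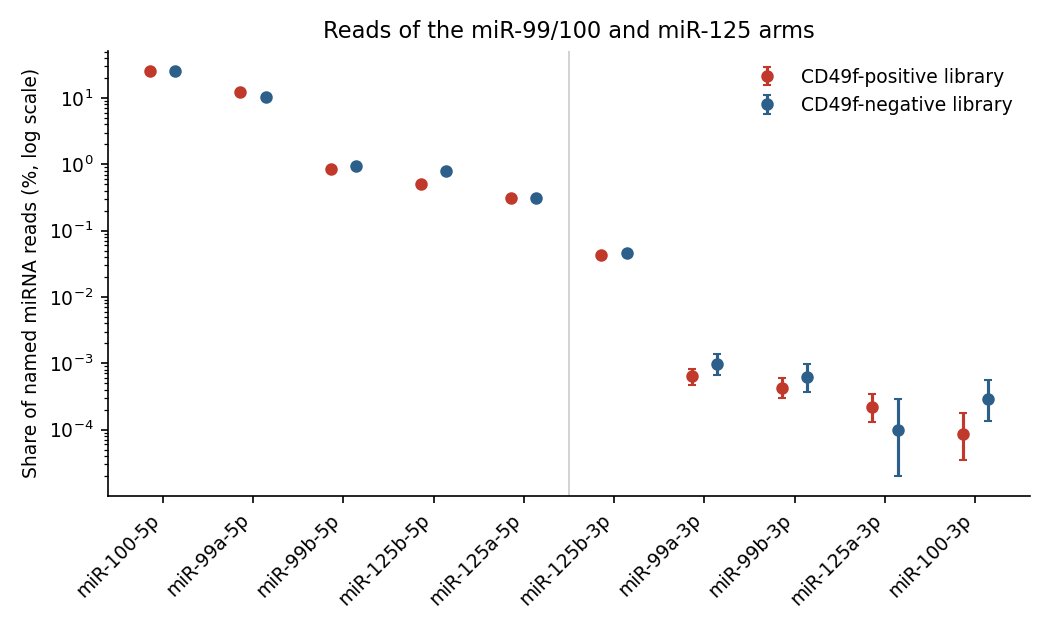
Share of named miRNA reads (percent, log scale) for the 10 member arms, with 5p arms to the left of the line and 3p arms to the right. Points are the 1 library of each group and bars are 95% exact binomial intervals. With reads divided as deposited, miR-100-5p lies at 25.4% in both, and every 3p arm but miR-125b-3p lies below 0.001%.

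The counts of miR-99a-5p and miR-100-5p depend on how reads matching both hairpins were shared out. The deposited tables give each hairpin's total before division, which allows the reads to be separated into those matching 1 hairpin and those matching both. In the positive library 66850 reads matched miR-99a alone, 1138211 matched miR-100 alone, and 1889839 matched both. In the negative library the numbers were 65249, 531958 and 493782. Shared reads were thus 61.1% of the pair's reads in the positive and 45.3% in the negative library, and the tables had given an equal part to each hairpin: 944917.5 and 246888.5 reads of the miR-99a hairpin were counted elsewhere.

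The listed shared read, which the tables give for both miR-99a-5p and miR-100-5p, carries the miR-99a base at position 16, in capitals here beside the reference miR-100 form.
shared read: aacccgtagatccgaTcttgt
miR-100-5p: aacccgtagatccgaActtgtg
The 21-base shared read was listed with 1561262 copies in the positive and 398781 in the negative library, 82.6% and 80.8% of the shared reads. It has 0 mismatches to miR-99a and 1 to miR-100.

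As shares of all named reads, those matching both hairpins were 23.1% and 16.1%, a log2 ratio of 0.52 (0.51 to 0.52). Those matching only miR-100 were 13.9% and 17.4% (-0.32), and those matching only miR-99a 0.816% and 2.13% (-1.38, -1.40 to -1.37). The 3 classes therefore did not move together: on the read total, the shared reads were higher in the positive library, and both classes matching 1 hairpin only were lower. The scaling shifts described below, 0.45 and 0.59, would put the class matching only miR-100 above 0. Most of the shared class was the listed read with 0 mismatches to miR-99a. Its copies were 19.0% and 13.0% of the named reads, a log2 ratio of 0.55. The class matching only miR-99a is thus a small part of the reads that fit miR-99a. If all shared reads were given to miR-99a, it would hold 23.9% and 18.2% of the reads, which is the most it could have. The matching upper limits for miR-100 are 36.9% and 33.5%.

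**Figure D2:**
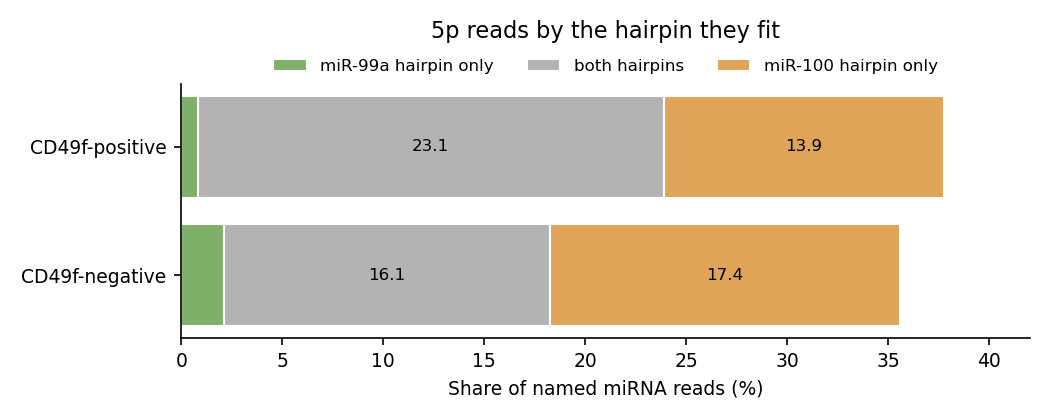
Share of named miRNA reads (percent) of the 5p arms of miR-99a and miR-100, divided by whether they match the miR-99a hairpin, the miR-100 hairpin or both. The grey shared class takes 23.1% in positive and 16.1% in negative cells, the orange class only matching miR-100 13.9% and 17.4%, and the unlabelled green class only matching miR-99a 0.816% and 2.13%.

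Reads with no mismatch to the hairpin also differed. Of the miR-99a-5p reads, 84.2% in the positive and 69.8% in the negative library had none, against 41.2% and 44.5% of the miR-100-5p reads. These shares depend on the equal division. The listed shared read counts as without mismatch for miR-99a-5p and as mismatched for miR-100-5p. Without mismatches, the log2 ratio of miR-99a-5p was 0.47 and that of miR-100-5p -0.19. Together the pair made up 37.8% and 35.6% of the named reads, a log2 ratio of 0.08. It does not turn on the division but does on the scaling described below.

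With the deposited division, the log2 ratio was 0.28 (0.27 to 0.28) for miR-99a-5p, 0.00 for miR-100-5p and -0.19 (-0.21 to -0.17) for miR-99b-5p. In the other family it was -0.03 (-0.07 to 0.00) for miR-125a-5p, -0.67 (-0.69 to -0.64) for miR-125b-5p and -0.07 (-0.16 to 0.02) for miR-125b-3p. These 6 arms were the members with at least 100 summed reads. A difference was called at 2-fold or more with an interval excluding no change, and 0 of the 6 were called, against 26.6% of the 301 names with that many reads (24.6% lower and 1.99% higher). The members' median log2 ratio was -0.05, and that of all 301 names -0.43.

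These ratios rest on the read total as the common scale. With factors from names with at least 10 reads, TMM scaling raised every log2 ratio by 0.45 and median-of-ratios scaling by 0.59. Of the 6 arms, 0 were called under TMM, where 22.3% of all names were (8.97% higher and 13.3% lower). The count was also 0 under median-of-ratios scaling, against 20.6% of all names (11.3% higher and 9.3% lower). Among reads without mismatches it was 0 against 22.9% (1.63% higher and 21.2% lower). Under TMM and median-of-ratios scaling with these factors, miR-125b-5p stayed below 0, at -0.22 and -0.07, and miR-99a-5p stayed above. miR-99b-5p turned from -0.19 to 0.26 and 0.41, miR-125a-5p from -0.03 to 0.41 and 0.56, and miR-100-5p from 0.00 to 0.45 and 0.59. The miR-125 family as a whole went from -0.44 to 0.00 and 0.15, and the miR-99/100 family from 0.08 to 0.52 and 0.67. With no read minimum for the factors the shifts were 0.82 and 0.83. Either would place miR-125b-5p above 0 and miR-99a-5p past 2-fold. Differences between members do not depend on this choice.

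**Figure D3:**
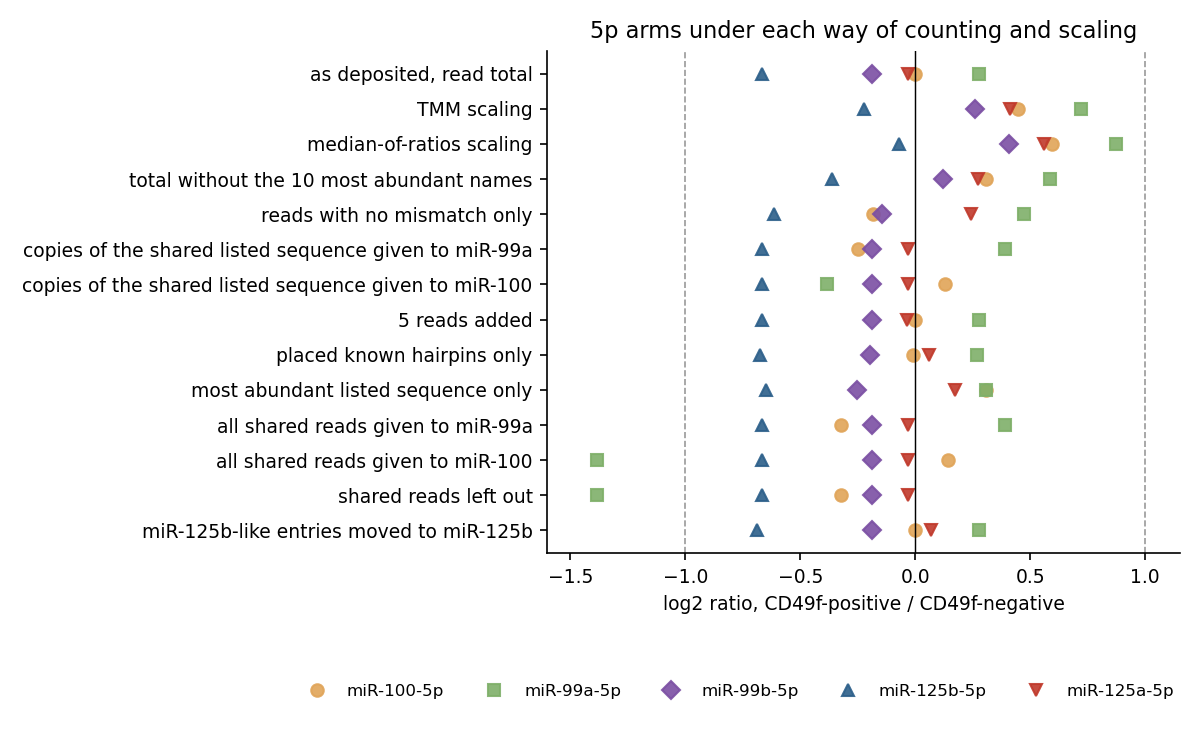
log2 ratio (CD49f-positive over CD49f-negative) of the 5 member 5p arms under each way of counting and scaling, with dashed lines at 2-fold. In the settings drawn, with scaling factors from names with at least 10 reads, miR-125b-5p lies between -0.69 and -0.07. miR-99a-5p runs from -1.38 to 0.87 and crosses 2-fold where the shared reads are given to miR-100 or left out. Those settings take from miR-99a the listed shared read, which has 0 mismatches to it and 1 to miR-100. With the shared reads given to miR-99a, it lies at 0.39.

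miR-125b-5p was the member with the lowest ratio among the 5p arms as deposited, 1.59-fold lower in the CD49f-positive cells. Its log2 ratio lay 0.63 (0.59 to 0.67) below that of miR-125a-5p, its family partner, and 0.75 (0.73 to 0.77) below that of miR-99a-5p and miR-100-5p taken as a sum. That sum had 74.8 reads for each miR-125b-5p read in the positive and 44.4 in the negative library. Nearly all miR-125b-5p reads, 98.6% and 98.1%, matched both of its hairpins. The few that matched 1 hairpin were also lower in the positive library, with 193 and 136 reads for miR-125b-2 (log2 ratio -0.92, -1.24 to -0.59) and 370 and 342 for miR-125b-1 (-1.31, -1.52 to -1.09).

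Some entries named miR-125a, under a Tasmanian devil identifier, listed a miR-125b sequence extended at its 3′ end, in capitals here.
negative library: tccctgagaccctaacttgtgaAA
positive library: tccctgagaccctaacttgtgaAAT
The negative form had 932 copies among the 1068 reads of its entry, and the positive form 1 copy among 1124. A further entry with another extension held 2 reads in the negative and 10 in the positive library. Their hairpin is itself named miR-125b in the tables. These entries held 1134 reads in the positive and 1070 in the negative library, 4.50% and 11.1% of the reads named miR-125a-5p, and none had 0 mismatches. The listed sequences account for 8 copies of the 1134 reads and for 933 of the 1070, so the sequence of nearly all these reads in the positive library is not shown. With the entries moved whole to miR-125b, miR-125a-5p would have 24059 and 8570 reads, with its log2 ratio at 0.07 (0.03 to 0.11). miR-125b-5p would have 42502 and 25625, with its log2 ratio at -0.69 (-0.71 to -0.67). The distance between the pair would then be 0.76 (0.72 to 0.80).

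At its own hairpin, 89.6% of miR-125a-5p reads in the positive and 75.5% in the negative library had no mismatch. Among such reads its log2 ratio was 0.24 (0.20 to 0.28). The share without a mismatch over all named reads was 67.3% and 64.0%. miR-99b-5p, its neighbour in the compact cluster, had 79.3% and 73.3%, and its log2 ratio among such reads was -0.14.

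The 3p arms were rare except for miR-125b-3p, with 3551 reads in the positive and 1392 in the negative library. Nearly all of it came from the miR-125b-2 hairpin. The miR-125b-2 arm had 3485 and 1369 reads, and the miR-125b-1 arm 66 and 23. At the miR-125b-2 hairpin, with shared 5p reads divided equally, 14.5% (14.0 to 14.9) of the reads in the positive and 10.1% (9.61 to 10.6) in the negative library were from the 3p arm. At miR-125b-1 they were 0.317% and 0.185%.

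The ratio of the 2 arms of miR-125b depended on which reads were counted. The log2 ratio of the miR-125b-2 3p arm lay 0.60 (0.50 to 0.69) above that of miR-125b-5p, with all reads of each arm. For copies of the listed sequence alone, 1247 and 558 for the 3p arm and 13656 and 6775 for the 5p arm, the distance was 0.15 (-0.00 to 0.30). Without mismatches, 9.07% and 6.61% of miR-125b reads were from the 3p arm, against 7.91% and 5.36% of all its reads.

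At the other 4 hairpins the 3p share was under 0.1%. miR-99a-3p had 52 and 30 reads, miR-99b-3p 35 and 19, miR-125a-3p 18 and 3, and miR-100-3p 7 and 9. Their log2 ratios had wide intervals, as for miR-99a-3p (-0.64, -1.30 to 0.07). miR-100-3p reached -1.76 (-3.44 to -0.19) on 16 reads, below the 100 that a call asks for. Of the 18 reads of miR-125a-3p, 3 belonged to an entry that lists a sequence beginning like miR-125b-1-3p, with 1 copy.

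**Figure D4:**
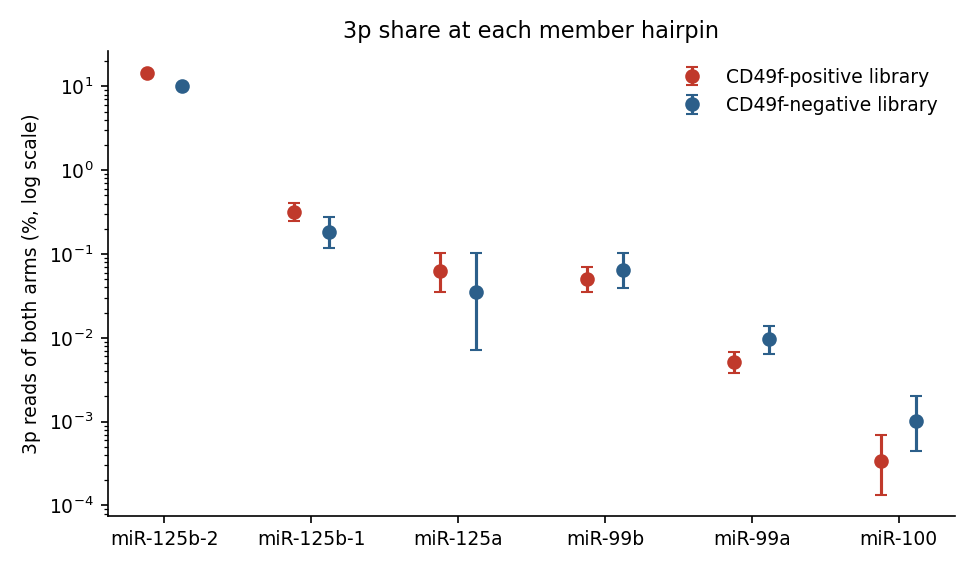
Share of 3p reads among the reads of both arms (percent, log scale) at each of the 6 member hairpins, with 95% exact binomial intervals. The miR-125b-2 hairpin stands at 14.5% in the CD49f-positive and 10.1% in the CD49f-negative library, and miR-100 at 0.000336% and 0.00103%.

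The let-7 genes within the clusters had higher ratios than their miR-125 neighbours. let-7c-5p had 7663 and 2144 reads, let-7a-5p 108656 and 28062, and let-7e-5p 3546 and 994, with log2 ratios of 0.42, 0.53 and 0.42. These ratios rest on a division too: of the reads matching the let-7c hairpin, 8754 of 16425 in the positive and 2379 of 4523 in the negative library were counted elsewhere, and let-7a-5p reads come from several let-7a hairpins. The log2 ratio of let-7c-5p lay 1.09 (1.01 to 1.16) above that of miR-125b-5p and 0.33 above that of the miR-99a-5p and miR-100-5p sum. For let-7a-5p against miR-125b-5p the distance was 1.20 (1.17 to 1.23). In the compact cluster let-7e-5p lay 0.60 above miR-99b-5p and 0.35 above miR-125a-5p without the moved entries. With reads as deposited, let-7 had the highest ratio among the 5p arms of each cluster. Among reads without mismatches this did not hold for miR-99a-5p, at 0.47 against 0.45 for let-7c-5p.

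**Figure D5:**
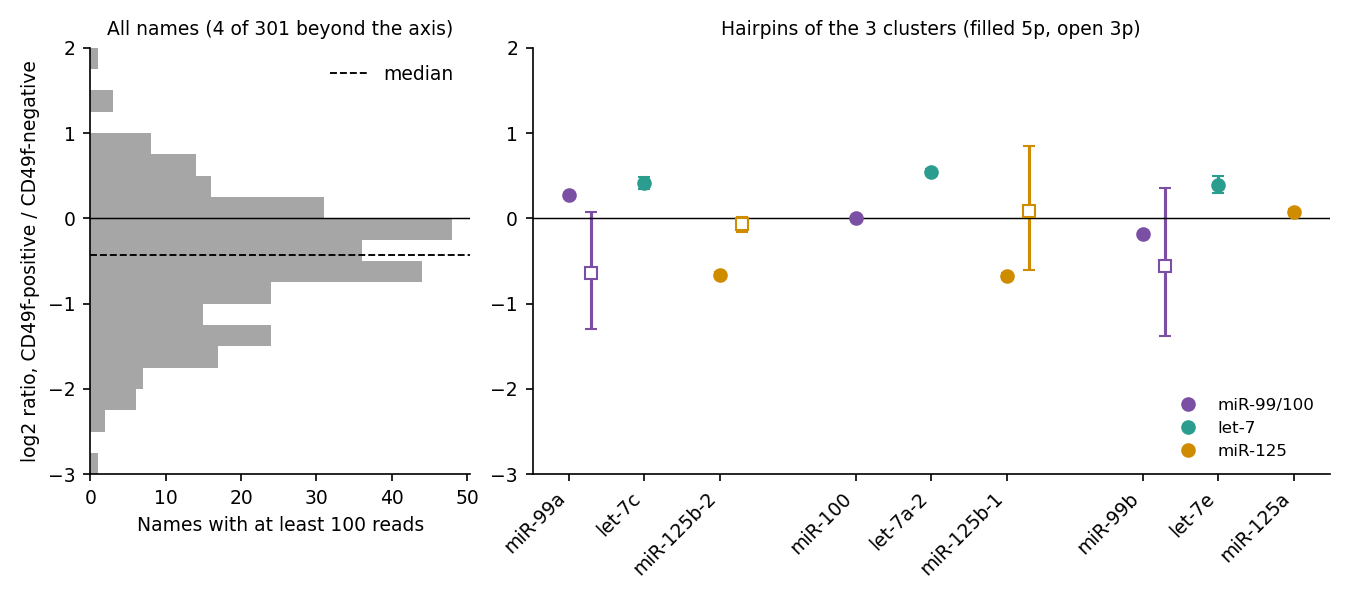
log2 ratio (CD49f-positive over CD49f-negative) of all 301 names with at least 100 reads, as a histogram with its median at -0.43, beside the hairpins of the 3 clusters in gene order. Filled points are 5p arms and open squares 3p arms with at least 50 reads, bars are 95% intervals, and colours mark miR-99/100 (purple), let-7 (teal) and miR-125 (amber); the let-7 points lie highest among the 5p arms of each cluster.

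Outside the members, 130 names with at least 1000 reads were ranked by the distance of their log2 ratio from that of each 5p arm over these 2 libraries. miR-25-3p (-0.68), miR-342-3p (-0.70) and miR-6243-5p (-0.63) were nearest to miR-125b-5p. let-7i-5p (0.27), miR-143-3p (0.26) and miR-450b-3p (0.24) were nearest to miR-99a-5p. miR-26a-5p (-0.01), miR-22-3p (0.01) and miR-23a-3p (-0.02) were nearest to miR-100-5p. miR-199b-5p, miR-2478-3p and miR-152-3p, each at -0.19, were nearest to miR-99b-5p. miR-23a-3p (-0.02), miR-423-3p (-0.05) and miR-26a-5p (-0.01) were nearest to miR-125a-5p.

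Other cell type markers differed between the libraries beside these results. The endothelial marker was 1.43% and 0.755% of the reads, and the Sertoli cell marker miR-202 0.0320% and 0.0823%. The epithelial list had a log2 ratio of -1.56, with most reads from miR-200b-3p (235 and 269). The white blood cell list had -0.80, with most reads from miR-142, while miR-223-3p lay at 0.33 on 18 and 5 reads. The red blood cell list (-0.33) and the fibroblast-like mesenchymal list (-0.20) lay nearer the median of all 301 names, -0.43. Most reads of the mesenchymal list were miR-199a-5p (-0.23) and miR-199b-5p (-0.19), and the arms of miR-214 disagreed, with miR-214-3p at 0.06 and miR-214-5p at -1.39. The germ cell list had a log2 ratio of -2.34, further from 0 than any measured member arm. The part of cell mixture in the members' ratios was not tested.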

How the data were processed

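Small RNA of 1 CD49f-positive and 1 CD49f-negative sample was sequenced from TruSeq small RNA libraries on a GAIIx, per the labels' protocols. Samples were placed in groups by their labels. Reads had been compared by the authors with miRBase hairpins of mammals, a goat genome and expressed sequences, per the file headers. The aligner was not given in the sources used here, nor were miRBase release and build. The reads per arm are expected counts as deposited, with reads matching several hairpins divided between them. The hairpin totals and the copies of each listed sequence are whole read counts, per the file headers. The GC content of hairpins was deposited as a percent. The listed sequence of an arm is the read of highest mapped score, which need not be the most abundant.

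Reads were summed by name and arm, and shares were taken of all named reads. Unnamed entries (45707 and 18827 reads) were left out. Ratios had 0.5 reads added, with 95% exact conditional (Clopper-Pearson) intervals on rounded counts. Differences between log2 ratios have normal intervals from counts. Reads are not independent molecules, so intervals cover counting error only. Calls needed 100 summed reads, 2-fold and an interval excluding 1. With 1 library per group no test was made.

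The members, lists and tests were chosen with earlier results of these data known. The text names all member arms, the 3 let-7 partners and, for each 5p arm, the 3 names nearest in log2 ratio. Alternatives were TMM factors (edgeR 4.0.16) and median-of-ratios factors (DESeq2 1.42.0, R 4.3.3) over names with at least 10 reads, other minimums, priors and folds, reads without mismatches, and other divisions of shared reads. Both tools supplied factors only. Not every member hairpin's sequence is reported here. Ratios and calls were tested on simulated counts that held counting error only, which checks the calculation and says nothing of replicate spread. Python 3.11.15, pandas 2.3.3 and SciPy 1.17.1 were used.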

Additional observations from a re-analysis of the deposited data

How the results depend on the processing

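No paired analysis was possible because each group had 1 library. The median log2 ratio of the 6 measured arms, -0.05, was 0.39 with TMM scaling, 0.54 with median-of-ratios scaling and 0.26 without the 10 most abundant names. It was -0.13 for reads without mismatches and for each way of giving shared reads or copies to miR-99a or miR-100, and -0.25 with shared reads left out. The TMM shift itself depends on the read minimum, from 0.35 at 100 reads to 0.82 with none. The median-of-ratios shift ran from 0.44 at 100 reads to 0.83 with none, and was 0.68 at 5 reads. This shift at 5 reads, and either shift with no minimum, would take miR-125b-5p from -0.67 to above 0. With no minimum either shift would also take miR-99a-5p, at 0.28, past 2-fold as higher. For reads without mismatches the members' share was 32.9% and 31.0%, and the 3p share of all members went from 0.113% to 0.150% and from 0.126% to 0.173%. The number of members past 2-fold went from 0 to 1 (miR-100-3p) with a minimum of 10 reads or none, and to 1 (miR-99a-5p, -1.38) where all shared reads went to miR-100 or were left out. The latter settings take from miR-99a the listed shared read, which has 0 mismatches to it and 1 to miR-100. Giving listed copies of the shared sequence to miR-99a moved miR-99a-5p to 0.39 with miR-100-5p at -0.25, and giving them to miR-100 gave -0.38 and 0.13. Arms were also compared over 13 alternatives, 4 of them chosen after seeing the data. These hold the TMM and median-of-ratios factors at the minimum of 10 reads only. miR-125b-5p was below 0 in 13, miR-99a-5p above 0 in 10, miR-100-5p in 6, miR-125a-5p in 7, and miR-99b-5p and miR-125b-3p in 3 each. The 4 added are the divisions of all shared reads and the move of entries named miR-125a to miR-125b. Settings that only change the counts of miR-99a-5p and miR-100-5p leave the other arms as they were by design. For miR-125b-5p, miR-125a-5p, miR-99b-5p and miR-125b-3p those settings are therefore no check, though they are counted among the 13. Another of the 13 counts only the listed sequence with most copies for each arm. For miR-99a-5p and miR-100-5p this is the same shared read, at 0.31 for each, so it is no check of miR-100-5p.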

Other observations

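Few other names carried a member seed. miR-351-5p had 2 reads over both libraries, and an entry named for let-7b and another named miR-125 each had 1. None of these reached the 100 reads asked of a call.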
